A study of Mus musculus with 20 samples.

Results

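The genes examined here encode the collagens of the basement membrane together with its nidogens and perlecan. They are the type IV collagen chain genes Col4a1, Col4a2, Col4a3 and Col4a4, the multiplexin collagen genes Col15a1 and Col18a1, the perlecan gene Hspg2 and the nidogen genes Nid1 and Nid2. These 9 genes, of 21887 protein-coding genes of the mouse (autosomes, X and Y), were chosen by name and placed by their mm10 positions. Each was described by the H3K27ac, H3K4me3 and H3K27me3 peaks over the gene and 1 kb on either side, by H3K27ac peaks within 100 kb, and by sites of the transcription factor HEB within 100 kb.

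The data are chromatin immunoprecipitation with sequencing (ChIP-seq) from Comma-Dβ, an established mouse mammary epithelial cell line, at passage 28 for every sample. Antibodies to HEB (the E protein encoded by Tcf12), H3K27ac, H3K4me3 and H3K27me3 gave 4 replicates each, and 4 samples were input chromatin, 20 samples in all. The culture medium was DMEM/F12 buffered with 10 mM HEPES, and its additions were epidermal growth factor at 5 ng/mL, insulin at 0.125 IU/mL and 2% serum; no treatment is named. The deposited values are 1 peak list per antibody with no column per replicate, so no value below has a replicate error, read depth is unknown, and no test was run. Widths, fold enrichments over control and q-values of peaks are the authors' own, and they are ranked only within their list.

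A basement membrane is the thin sheet of matrix under an epithelium. Type IV collagen forms one of its networks and laminins the other, and nidogens and perlecan bind components of both and link them. In the mammary gland it surrounds the ducts and alveoli and is contacted by the basal, myoepithelial cells. H3K4me3 is found at promoters in use or poised for use, H3K27ac at active promoters and enhancers, and H3K27me3 at chromatin held by Polycomb. The genes for type IV collagen chains lie in head-to-head pairs that share the stretch between their starts. The epithelial label was checked on markers: 6 of 7 mammary epithelial markers carried both H3K27ac and H3K4me3 peaks at a gene end (within 1 kb), 3 of them with H3K27me3 as well, while Trp63 carried both active marks only inside the gene. Of markers of other cells, H3K4me3 lay at a gene end of 1 of 6 endothelial (Kdr, which also had H3K27me3 there), 2 of 5 stromal fibroblast (Dcn and Pdgfrb) and 1 of 5 immune genes (Cd68). H3K27ac lay at a gene end of 1 endothelial (Pecam1), 2 stromal fibroblast (Dcn and Pdgfrb) and 2 immune genes (Cd68 and Itgam, the second with H3K27me3 as well). Over all protein-coding genes the shares were 55.8% for H3K4me3 and 53.4% for H3K27ac. Both lay at a gene end without H3K27me3 in 43.3% of all genes, and with it in 5.44%.

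The promoter sequences below show how the starts of these genes differ in base composition, which can be set beside their marks. RefSeq windows (build GRCm38.p6, from 250 bases before to 50 after the annotated start) were found for 7 of the 9 genes, with 8 windows in all since Col18a1 has an upstream and a downstream start. Col4a3 and Nid2 had none. Of the windows, 6 are printed 5′ to 3′ on the gene's own strand, with each CG dinucleotide in capitals. The Col4a1 window (chr8:11312777-11313076, minus strand) also holds the start of Col4a2. The others are Hspg2 (chr4:137468553-137468852, plus strand), Col18a1 upstream (chr10:77166481-77166780, minus strand), Col18a1 downstream (chr10:77113656-77113955, minus strand), Col4a4 (chr1:82586800-82587099, minus strand) and Col15a1 (chr4:47207762-47208061, plus strand).
Col4a1: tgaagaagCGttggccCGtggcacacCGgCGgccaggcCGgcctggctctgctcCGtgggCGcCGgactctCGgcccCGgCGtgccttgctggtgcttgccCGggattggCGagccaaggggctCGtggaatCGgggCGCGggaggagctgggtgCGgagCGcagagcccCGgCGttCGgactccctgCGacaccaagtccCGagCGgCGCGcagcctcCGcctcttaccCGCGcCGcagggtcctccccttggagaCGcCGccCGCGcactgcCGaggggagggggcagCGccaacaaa
Hspg2: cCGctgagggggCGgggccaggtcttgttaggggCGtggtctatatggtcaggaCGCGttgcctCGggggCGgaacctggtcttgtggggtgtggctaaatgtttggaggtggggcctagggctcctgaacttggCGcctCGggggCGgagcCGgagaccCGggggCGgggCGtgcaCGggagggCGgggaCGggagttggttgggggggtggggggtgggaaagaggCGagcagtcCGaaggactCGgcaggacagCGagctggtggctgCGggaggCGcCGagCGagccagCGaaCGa
Col18a1, upstream start: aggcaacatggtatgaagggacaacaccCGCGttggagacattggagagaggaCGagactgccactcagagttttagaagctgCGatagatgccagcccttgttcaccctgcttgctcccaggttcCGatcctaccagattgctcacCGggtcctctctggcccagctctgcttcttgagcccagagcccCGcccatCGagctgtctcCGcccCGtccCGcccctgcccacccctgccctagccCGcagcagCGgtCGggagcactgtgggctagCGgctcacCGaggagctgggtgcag
Col18a1, downstream start: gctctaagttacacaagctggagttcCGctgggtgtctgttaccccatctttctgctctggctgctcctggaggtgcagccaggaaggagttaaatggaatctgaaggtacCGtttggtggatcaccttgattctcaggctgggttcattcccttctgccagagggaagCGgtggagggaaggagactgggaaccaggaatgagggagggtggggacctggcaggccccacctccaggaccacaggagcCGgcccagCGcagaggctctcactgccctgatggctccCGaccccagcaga
Col4a4: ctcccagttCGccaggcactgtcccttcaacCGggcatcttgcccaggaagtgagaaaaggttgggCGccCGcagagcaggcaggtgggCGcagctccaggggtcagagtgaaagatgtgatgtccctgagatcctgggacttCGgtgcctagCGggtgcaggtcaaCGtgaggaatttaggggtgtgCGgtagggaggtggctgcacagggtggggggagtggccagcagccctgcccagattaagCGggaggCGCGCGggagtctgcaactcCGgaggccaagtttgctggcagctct
Col15a1: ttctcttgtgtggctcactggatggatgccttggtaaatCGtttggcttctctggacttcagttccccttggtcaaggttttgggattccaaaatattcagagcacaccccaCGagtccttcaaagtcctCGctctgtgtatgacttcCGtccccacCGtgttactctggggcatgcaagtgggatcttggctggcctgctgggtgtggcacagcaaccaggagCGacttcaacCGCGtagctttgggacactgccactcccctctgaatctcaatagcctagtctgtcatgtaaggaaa

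The windows ranged widely in CpG content, and the 2 that lacked H3K4me3 within 1 kb had the fewest CG dinucleotides. The Col4a1 window held 37 CG dinucleotides, a ratio to the number expected from its C and G content of 0.90, and that of Col4a2 held 33 (0.82). Hspg2 had 27 (0.88), Nid1 20 (0.64), the upstream Col18a1 start 16 (0.54) and Col4a4 14 (0.49). Col15a1 had 8 (0.39) and the downstream Col18a1 start 6 (0.23), the windows without H3K4me3. Among the rest the order of CpG did not follow the H3K4me3 fold: Nid1, with a higher ratio than the upstream Col18a1 start, had a fold of 3.22, against 22.3 there. Over 21238 windows of protein-coding genes, H3K4me3 lay within 1 kb of 90.4% of the starts with a ratio of at least 0.6 and of 26.4% of those below it.

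HEB and other E proteins bind the E-box, CANNTG. Read on both strands (the pattern is its own reverse complement), an E-box was present in 69.0% of the 21238 windows. Among the windows of these genes only Col4a4 and Col15a1 had one. In Col4a4 it was CAGGTG at position -169 from the start, and in Col15a1 CAAGTG at position -74. CAGCTG was in none of the 8 windows and in 15.6% of all windows, and CAGGTG or its reverse complement CACCTG was in 19.7% of all windows. A match is a description of the letters in these windows. The sequences of the HEB sites themselves were not used here.

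Counted together, 5 genes had H3K27ac at a gene end (within 1 kb), and the other 4 (Col4a3, Col4a4, Col15a1 and Nid2) had H3K27me3 there without it. H3K27ac lay over or within 1 kb of 8 of the 9 genes, all but Nid2, against 63.2% of all protein-coding genes and 85.0% of the 4131 that are at least as long as Nid2 (60.5 kb), the shortest of the 9. H3K4me3 lay at 7, all but Col15a1 and Nid2, against 61.2% of all genes and 78.5% of the long ones. H3K27me3 lay at 6, against 37.5% and 49.4%. Within 1 kb of a gene end the counts were 5 for H3K27ac (53.4% of all genes, 57.3% of the long ones), 7 for H3K4me3 (55.8% and 65.7%) and 6 for H3K27me3 (32.3% and 38.4%). In these counts Col4a1 and Col4a2 were called from the same peak of each mark. Col4a3 and Col4a4 were likewise called from the same H3K4me3 peak and the same H3K27me3 peak. The genes of a pair are therefore not separate observations. At the annotated starts of the 7 genes with a RefSeq window, H3K27ac lay at 5 (52.7% and 60.1%), H3K4me3 at 6 (57.8% and 72.4%) and H3K27me3 at 4 (27.4% and 33.8%).

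By combination, Col4a1 and Col4a2 had all of the marks at a gene end (5.44% of all genes), and Col18a1, Hspg2 and Nid1 had H3K27ac with H3K4me3 (43.3%). Col4a3 and Col4a4 had H3K4me3 with H3K27me3 (5.17%), and Col15a1 and Nid2 had H3K27me3 alone (20.4%). The H3K27me3 peaks were mostly of low significance: 2 of 37 distinct peaks had a −log10 q of at least 5, beside 9.53% of the H3K27me3 list. At that threshold H3K27me3 lay over or near 2 of the 9 genes, Col15a1 and Col4a3 (19.5% of all genes), and at an end of 1, Col15a1 (17.1%). Of the 7 genes with H3K4me3, 4 had a peak above the list's median fold of 12.9, and of these Col4a1 and Col4a2 share the same peak. The share of all genes with such a peak was not counted. The 8 distinct H3K4me3 peaks, at the starts and inside the genes, had a median fold of 3.36, and 0 were in the top 10% of the list.

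**Figure D1:**
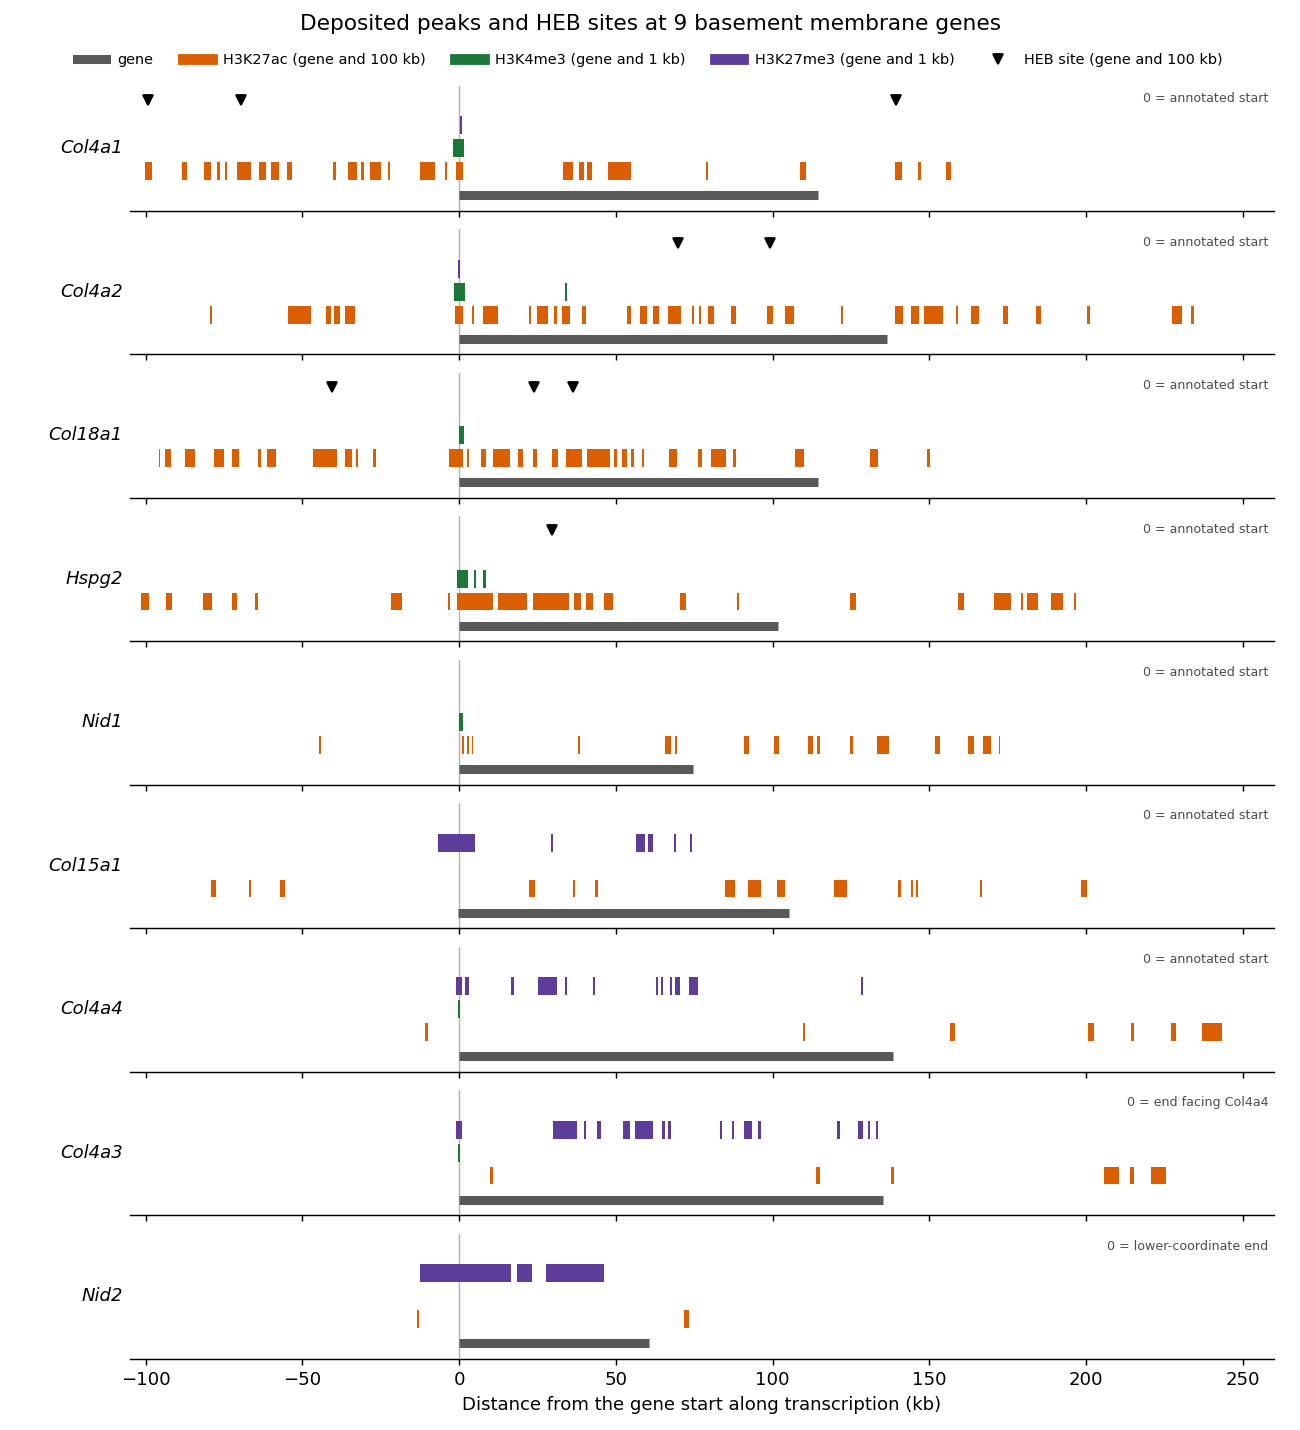
Peaks of H3K27ac (orange), H3K4me3 (green) and H3K27me3 (purple) and HEB sites (black triangles) at each of the 9 genes (grey bars), by distance in kb along transcription from the start. For Col4a3 the zero is the end facing Col4a4 and for Nid2 the end with the lower coordinate. H3K27ac and HEB are drawn to 100 kb from the gene and the other marks to 1 kb; 7 distinct HEB sites lie at the top 4 genes, and the wide purple blocks lie at the start of Col15a1 and over Nid2.

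Col4a1 and Col4a2 encode the α1 and α2 chains of the type IV collagen found in nearly all basement membranes. They lie head to head on chromosome 8 (Col4a1, 11198423 to 11312889; Col4a2, 11312805 to 11449287), with annotated starts 21 bp apart. Both starts were under 1 H3K4me3 peak of 3.45 kb with a fold of 31.3, higher than 89.6% of the H3K4me3 list. An H3K27ac peak of 2.47 kb with a fold of 4.70 covered the same starts, higher than 87.1% of the H3K27ac list. The H3K27me3 peak counted for these genes was 218 bp wide with a fold of 1.65 and a −log10 q of 1.70. Of the H3K27me3 list, 0.439% was narrower and 27.8% was lower in fold. By fold, the shared start thus had H3K4me3 in the upper part of its list and H3K27me3 in the lower part of its own. By width this H3K27me3 peak was among the narrowest.

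The acetylation of this pair lay more on the Col4a2 side. Col4a2 had 19 H3K27ac peaks over its 136 kb, covering 26.3% of the gene. Col4a1 had 7 over its 114 kb, covering 15.5%. The peak with the highest fold at the locus was not at the start but inside Col4a2, 7.755 to 12.35 kb downstream of its start, with a fold of 7.43 and a width of 4.596 kb (97.2% of the list was lower in fold). Further peaks inside Col4a2 had folds of 4.89 at 32.7 kb, 4.99 at 57.6 kb, 4.59 at 66.5 kb and 4.57 at 79.3 kb from the start. Inside Col4a1 the strongest peaks beyond the start had folds of 4.03 at 33.1 kb and 3.64 at 47.4 kb, the one at 47.4 kb being 7.40 kb wide.

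Col4a3 and Col4a4 encode the α3 and α4 chains, which join α5 in the basement membranes of the kidney glomerulus and a few other tissues. They are the second pair, on chromosome 1 (Col4a4, 82448419 to 82587034; Col4a3, 82586921 to 82722059). Their facing ends shared an H3K4me3 peak of 0.709 kb with a fold of 3.50, higher than 23.6% of the list, and an H3K27me3 peak of 1.81 kb with a fold of 2.00 lay over it. No H3K27ac peak lay within 1 kb of a gene end of either gene.

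Along the bodies of this pair H3K27me3 was patchy and H3K27ac nearly absent. Col4a3 held 16 H3K27me3 peaks covering 20.9% of the gene, the widest 7.65 kb, and Col4a4 held 12 covering 11.8%, the widest 6.22 kb. Of these, 1 peak, 0.498 kb wide in Col4a3 with a fold of 2.29, had a −log10 q of 5 or more. H3K27ac covered 1.73% of Col4a3 in 2 peaks with folds of 2.31 and 1.89, and 0.438% of Col4a4 in 1 peak with a fold of 2.61. In the same list, the H3K4me3 peak at the shared start had a fold of 31.3 at Col4a1 and Col4a2 and of 3.50 at Col4a3 and Col4a4. With 1 list, this difference has no replicate check.

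**Figure D2:**
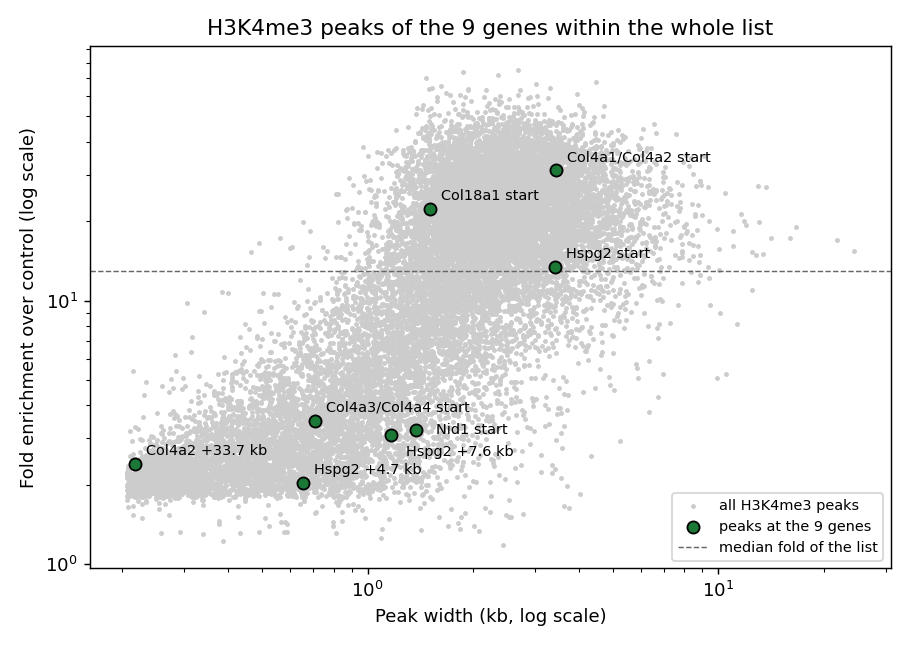
Fold enrichment over control against width (kb), both on log axes, of all 17162 H3K4me3 peaks (grey) and of the 8 peaks at these genes (green, labelled by gene and by distance from the start where not at it). The start peaks of Col4a1/Col4a2, Col18a1 and Hspg2 lie above the list's median fold of 12.9 (dashed) and those of Nid1 and Col4a3/Col4a4 lie at 3.22 and 3.50.

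Col15a1 and Col18a1 encode collagens XV and XVIII, the multiplexins, whose C-terminal ends are released as endostatin-like fragments. Col18a1 (chromosome 10, 77052178 to 77166530) had H3K4me3 and H3K27ac at its upstream start and further H3K27ac peaks along the gene. At the upstream start an H3K4me3 peak of 1.51 kb had a fold of 22.3, higher than 73.4% of the list, and an H3K27ac peak of 4.40 kb had a fold of 2.85. At the downstream start, in the interior of the gene, H3K27ac had a fold of 2.00 in a peak of 1.68 kb and H3K4me3 was not called. Over the gene 18 H3K27ac peaks covered 36.7% of its length, and 10 of them had a −log10 q of 5 or more. Their folds ran from 1.81 to 5.51 with a median of 2.59, and the strongest lay 10.7 to 16.3 kb from the upstream start with a width of 5.59 kb. No H3K27me3 peak lay over Col18a1.

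Col15a1 (chromosome 4, 47207655 to 47313167) carried H3K27me3 at its start and H3K27ac farther into the gene. An H3K27me3 peak of 11.8 kb, from -6.87 to 4.95 kb of the start, had a fold of 3.12 and a −log10 q of 18.9. This fold was higher than 99.4% of the H3K27me3 list. Of the 6 H3K27me3 peaks of the gene, the others began 29.4 to 73.7 kb from the start. Their folds ran from 1.60 to 1.81. The nearest H3K27ac peak downstream began 17.2 kb after the end of that peak. Of 6 H3K27ac peaks in the gene, the strongest lay 101.3 to 103.9 kb from the start, 1.30 kb from the downstream end, with a fold of 6.28 (94.6% of the list was lower). Others had folds of 3.68 at 22.2 kb, 2.06 at 36.3 kb, 2.07 at 43.4 kb, 4.10 at 84.95 kb and 3.68 at 92.1 kb. H3K27ac covered 12.3% of the gene and H3K27me3 9.80%, H3K4me3 was not called in it, and no H3K27ac peak of the gene overlapped H3K27me3.

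Hspg2 encodes perlecan, a large heparan sulphate proteoglycan that binds laminin, nidogens and growth factors. At Hspg2 (chromosome 4, 137468751 to 137570630) the acetylation was gathered in the first part of the gene. From -0.616 to 35.0 kb of the start, 3 wide H3K27ac peaks followed each other, 11.5, 9.48 and 11.6 kb wide with folds of 5.40, 3.81 and 6.25. They summed to 32.6 kb, and those of 11.5 and 11.6 kb were wider than 99.2% of the list. The other 5 peaks of the gene summed to 9.81 kb with folds from 1.97 to 2.54. An H3K4me3 peak of 3.42 kb with a fold of 13.4 covered the start, and smaller ones with folds of 2.02 and 3.09 lay 4.65 and 7.55 kb into the gene. H3K27ac covered 41.1% of Hspg2, the highest share of the 9 genes, and H3K27me3 was not called in it.

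The nidogen genes, whose products bind laminin on one side and type IV collagen and perlecan on the other, differed from each other. Nid1 (chromosome 13, 13437602 to 13512275) had weak active marks and no H3K27me3. Its start had an H3K4me3 peak of 1.38 kb with a fold of 3.22, higher than 21.5% of the list, and the nearest H3K27ac peak began 0.99 kb into the gene, just inside the 1 kb limit, was 0.361 kb wide and had a fold of 2.10. The 6 H3K27ac peaks of Nid1 had a median width of 0.346 kb and folds from 1.97 to 2.73, and 1 of them had a −log10 q of 5 or more. Stronger H3K27ac lay beyond its downstream end, with folds of 3.50, 4.26 and 5.29 at 90.9, 100.6 and 133.5 kb from the start, of which the last lies nearer to an end of Lyst.

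Nid2 (chromosome 14, 19751257 to 19811787) had the highest H3K27me3 coverage of the 9 genes. Peaks of 29.1, 5.03 and 18.8 kb with folds of 2.06, 2.05 and 2.09 covered 66.8% of it, more than in 91.7% of the genes at least as long. Their −log10 q values were 4.75, 4.60 and 4.77, just under 5, so all of them were lost at that threshold. No H3K27ac or H3K4me3 peak lay over the gene. Within 100 kb there were 2 H3K27ac peaks, with folds of 2.15 and 2.51, and the second reached an end of the neighbouring gene Rtraf.

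**Figure D3:**
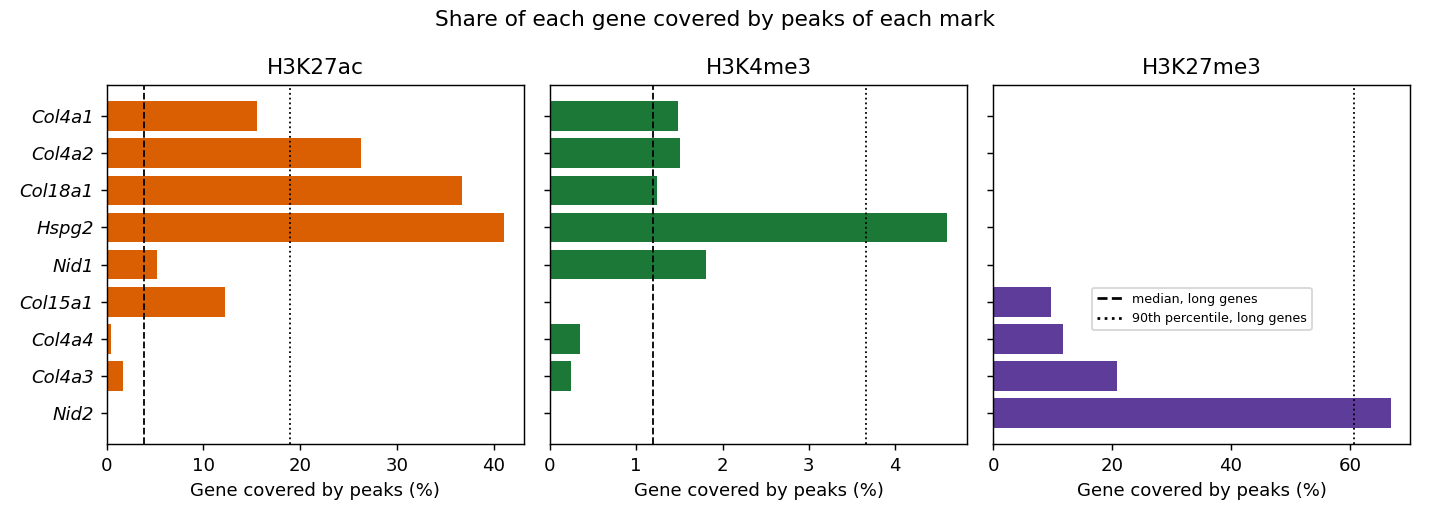
Share of each gene covered by H3K27ac, H3K4me3 and H3K27me3 peaks (%), with the median (dashed) and 90th percentile (dotted) over the 4131 protein-coding genes at least as long as Nid2; the median for H3K27me3 is 0 and falls on the axis. H3K27ac coverage is above the 90th percentile of 19.0% in Col4a2, Col18a1 and Hspg2, and H3K27me3 coverage above that of 60.6% in Nid2.

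Set beside genes of like length, H3K27ac coverage was high in part of the group. The median over the 9 genes was 12.3%, against 3.82% over the 4131 long genes. Col4a2, Col18a1 and Hspg2 stood above the 90th percentile of those genes (19.0%), while Col4a3, Col4a4 and Nid2 stood below their median. For H3K4me3 the median coverage was 1.24%, against 1.20% in the long genes. For H3K27me3 it was 0.190%, against 0% in the long genes.

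Within 100 kb the 9 genes had 137 distinct H3K27ac peaks, with those shared by a pair counted once. All 9 genes had at least 1, against 87.3% of all genes and 95.4% of the long ones. Col4a2 had 34, Col18a1 31, Col4a1 26, Hspg2 22, Nid1 17, Col15a1 15, Col4a4 7, Col4a3 6 and Nid2 2, against a median of 9 over all protein-coding genes and 11 over the long ones. The folds of the 137 peaks ran from 1.74 to 12.4 with a median of 2.54, beside 2.39 for the whole list, and 14 of them (10.2%) were in the top 10% of the list. The strongest were not on these genes: in the surroundings of Hspg2 a peak with a fold of 12.4 lay on an end of Usp48, and one with a fold of 12.3 lay 11.7 kb from Cela3a. Near Col18a1 a peak with a fold of 9.97 lay 5.05 kb from Pofut2. A peak within 100 kb was therefore not always nearest to the gene it was counted for.

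**Figure D4:**
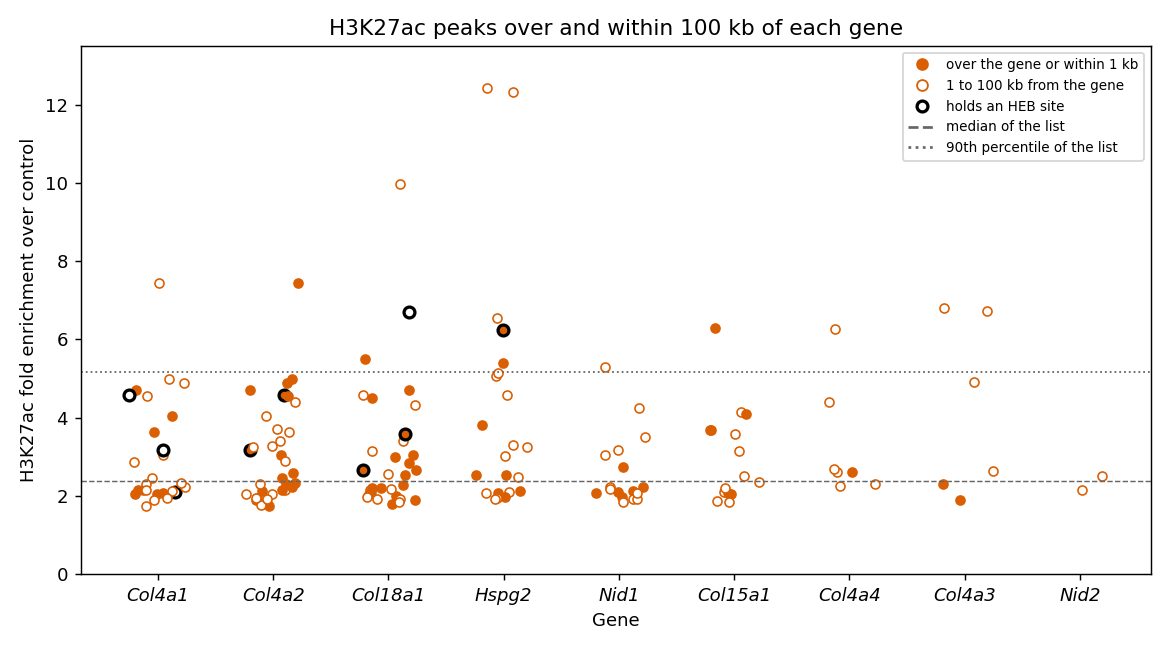
Fold enrichment over control of every H3K27ac peak over a gene or within 1 kb (filled) and 1 to 100 kb away (open); black rims mark peaks that hold an HEB site, and points are spread sideways for sight only. Lines give the median (2.39, dashed) and 90th percentile (5.16, dotted) of the list. Peaks near Col4a1 and Col4a2 appear under both genes, and the highest points, at 12.4 and 12.3, are neighbours of Hspg2.

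HEB sites lay near 4 of the 9 genes, Col4a1, Col4a2, Col18a1 and Hspg2, against 12.0% of all protein-coding genes and 12.3% of the long ones. There were 7 distinct sites, and Col4a1 and Col4a2 share 2 of them. Col4a1 had 3 within 100 kb, Col18a1 3, Col4a2 2 and Hspg2 1. Of the long genes, 2.13% had 2 or more sites and 0.629% had 3 or more. Of the 3 sites counted for Col4a1, 1 had an end of Col4a1 as its nearest gene end, and 1 lay within 50 kb of the gene. At the starts of these 4 genes H3K4me3 folds were 31.3 (1 peak shared by Col4a1 and Col4a2), 22.3 (Col18a1) and 13.4 (Hspg2). The median of the H3K4me3 list was 12.9. The 5 genes without a site were Nid1, Col4a3, Col4a4, Col15a1 and Nid2. How often other genes with or without an HEB site have such H3K4me3 was not counted, so no link is drawn.

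The sites were far from the starts and mostly inside the genes. In Col4a2 they were centred 69.7 and 99.15 kb downstream of the start (chromosome 8, 11382402 to 11382648 and 11411765 to 11412145). The same sites lay 69.5 and 98.9 kb outside Col4a1. The third site of Col4a1 (11173264 to 11173560) lay outside, 24.9 kb past its downstream end. In Col18a1 sites were centred 24.0 and 36.3 kb downstream of the upstream start (chromosome 10, 77142291 to 77142749 and 77129747 to 77130649), and a further one lay 40.3 kb upstream of the gene (77206792 to 77207206). In Hspg2 the site was centred 29.6 kb downstream of the start (chromosome 4, 137498236 to 137498585). In all, 5 sites were inside one of the 9 genes and 2 outside, and the closest edge of any site was 16.0 kb from the downstream Col18a1 start and 23.8 kb from the upstream one, with the other annotated starts farther away. Every one of the 7 had a gene end of these genes as its nearest, although the site at 99.15 kb in Col4a2 was 37.1 kb from the end of Col4a2 and 41.2 kb from Rab20.

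All 7 sites lay in H3K27ac peaks (exact Clopper-Pearson 95% interval 59.0 to 100%, counting error only), beside 85.3% of the 956 HEB sites. The interval takes the sites as independent, although most lie together at Col4a1 and Col4a2 or at Col18a1. None of the 7 lay in an H3K4me3 peak, beside 23.4% of all sites, or in an H3K27me3 peak, beside 9.41%. By a limit of 3 counts of the total, which is not the exact interval used above, 0 of 7 allows a share of up to 42.9%, so at this number of sites neither can be told apart from the list. The peaks holding the sites had folds of 2.09 past the end of Col4a1, 4.59 and 3.17 in Col4a2, 2.65 and 3.57 in Col18a1, 6.69 upstream of Col18a1 and 6.25 in Hspg2. Their median was 3.57, beside 4.19 over the 782 H3K27ac peaks of the list with HEB. Of the 7, 6 were above the H3K27ac list's median of 2.39, which the median of those 782 peaks also exceeds. The share of the 782 peaks above it was not counted. The site in Hspg2 lay in the 11.6 kb peak described above, and the upstream Col18a1 site in a peak of 7.90 kb.

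The remaining genes of the basement membrane give the setting. Of 37 others, H3K27ac lay at a gene end in 22 (53.4% of all genes), H3K4me3 in 29 (55.8%) and H3K27me3 in 15 (32.3%), and 8 had an HEB site within 100 kb (12.0%). The third head-to-head pair of type IV chains, Col4a5 and Col4a6 on chromosome X, shared an H3K4me3 peak with a fold of 9.15, H3K27ac with a fold of 4.05 and an H3K27me3 peak of 7.71 kb with a fold of 1.86. By H3K4me3 fold this pair stood between the other two pairs. Neither gene had an HEB site within 100 kb.

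Laminin chains carried H3K4me3 at a gene end in 8 of 11 genes, H3K27ac in 7 and H3K27me3 in 2, Lama1 and Lamc3. Lama1 was the only laminin gene with an HEB site within 100 kb, and Lamc3 had an H3K27me3 peak of 20.8 kb with a fold of 3.43. Of 15 other components, H3K27me3 lay at an end of 9, namely Smoc1, Smoc2, Fbln1, Fbln2, Npnt, Fras1, Frem1, Frem2 and Hmcn1, and HEB sites lay near 4, namely Sparc, Fbln1, Ntn4 and Tinagl1. Sparc, whose product binds type IV collagen, had an H3K27ac peak of 19.1 kb with a fold of 5.18. Of 9 receptors, 8 had H3K4me3 and 6 H3K27ac at a gene end, 2 had H3K27me3 (Itga2 and Bcam), and Itgb4, Ddr1 and Bcam had HEB sites within 100 kb.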

How the data were processed

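ChIP-seq of Comma-Dβ cells was analysed from 4 peak lists in mm10 coordinates, as named with SAMtools (no version) in the submitters' processing notes. By its name, the deposited HEB list is a replicate consensus (minimum overlap: 2). Not given in the sources used here are the aligner, the peak caller, the control and how replicates were combined for the histone marks. Each deposited histone list gives per peak a fold enrichment (a ratio of ChIP over control) and a −log10 q by the authors. The deposited score, 10 times the −log10 q as a whole number, and the p were not used. The deposited HEB list holds positions only.

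Positions of 21887 protein-coding genes and the promoter windows came from RefSeq tables of GRCm38.p6, the assembly behind mm10. Overlap needed 1 bp, and distance was measured from the gene body. Starts and strand came from the promoter table. For each count the same count over all genes, and over genes at least as long as Nid2, is given. CpG ratio is CG count times length over C count times G count. All 9 genes were named, with type IV chains, and with other basement membrane genes by class where they had HEB within 100 kb or H3K27me3 at a gene end; neighbouring genes, markers and other details were named after their values were seen. Genes, lists and counts were chosen with earlier results of these data known. Alternatives were stricter peaks, other windows, distances and overlaps. Interval code was tested on simulated peaks. Python 3.11.15, pandas 2.3.3, numpy 2.4.6 and scipy 1.17.1 were used.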

Additional observations from a re-analysis of the deposited data

How the results depend on the processing

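Of the counts and coverages over the 9 genes, 45 comparisons with an alternative stayed within a limit and 13 did not. The limit was 1.5 times for counts and a binomial interval over base pairs for coverage. Base pairs of a peak are not independent, so that interval is too narrow, and every coverage comparison fell outside it. Where a −log10 q of at least 5 was asked for, genes with H3K27me3 numbered 2 over the gene and 1 at a gene end, against 6 each with all peaks, and distinct H3K27ac peaks within 100 kb numbered 70, against 137. Coverage of the 9 genes was then 12.1% for H3K27ac, 1.14% for H3K4me3 and 0.592% for H3K27me3, against 16.0, 1.23 and 9.74%. Where the fold had to exceed its list's median, genes with H3K4me3 numbered 4 over the gene and 4 at a gene end, against 7 each, H3K27ac peaks 75, and coverage was 12.3%, 0.797% and 8.40%. Within 10 kb there were 70 H3K27ac peaks, and 5 HEB sites near 3 genes, against 7 sites near 4 genes within 100 kb. These settings keep fewer peaks by construction. Counts of single genes moved in 29 comparisons, all lower, and not in 43. Annotated starts alone, chosen after seeing the data, gave H3K27ac at 5, H3K4me3 at 6 and H3K27me3 at 4 of 7 genes. No paired analysis was possible because each antibody has 1 list with no column per replicate, and for the same reason no replicate could be left out.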
